A study of Mus musculus with 28 samples.

Results

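The Nodal pathway was followed through 10 genes chosen by name: the ligands *Nodal* and *Gdf3*, the co-receptor gene *Tdgf1* (Cripto), the antagonists *Lefty1*, *Lefty2* and *Cer1*, the transcription factor gene *Foxh1*, and the target genes *Gsc*, *Mixl1* and *Lhx1*. All 10 were found in the mm9 annotation, among its 22367 protein-coding gene entries. The rule for choosing them names genes and uses no measured value, though earlier results of these data were known when it was set. Around each gene, the regions listed as enriched for FLAG-tagged Brg1, H3K27ac, H3K27me3 and the Polycomb protein Suz12 were counted and their lengths summed, within 5 kb of the transcriptional start site (TSS), over the gene body and within 50 kb of the TSS.

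Nodal is a TGF-beta family ligand that signals through activin receptors with the help of the co-receptor Cripto. Phosphorylated Smad2 or Smad3 then enters the nucleus with Smad4 and binds DNA together with the forkhead protein Foxh1. Among the genes this complex activates are *Nodal* itself and its secreted inhibitors *Lefty1* and *Lefty2*, so that the pathway both feeds itself and restrains itself. In the embryo it is known for inducing mesendoderm in the primitive streak, where *Gsc*, *Mixl1* and *Lhx1* encode homeodomain proteins. H3K27ac marks active promoters and enhancers, whereas H3K27me3 is deposited by the Polycomb repressive complex that contains Suz12.

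The cells were mouse embryonic stem (ES) cells of the *Brg1*f/f; *Actin-CreER* genotype, in which 4-hydroxytamoxifen (4-OHT) switches on a ubiquitously expressed Cre recombinase that deletes *Brg1*, the gene for an ATPase of the BAF chromatin remodeling complex. They were grown for 2 days as embryoid bodies without serum, then induced toward mesoderm with VEGF, Activin A and BMP4 for 40 h and collected at day 4. Activin A acts through the same type of receptors as Nodal, and every culture of both conditions received it. From day 2 the deleted cultures received 200 nM 4-OHT in the solvent THF and the control cultures THF alone. In these samples an effect of 4-OHT itself and of *Brg1* deletion therefore cannot be told apart. The study's text reports that wild-type ES cells given 4-OHT still differentiated, but no list here comes from such cells. The 28 samples are ChIP-seq against FLAG (3), H3K27ac (2 THF and 2 4-OHT), H3K27me3 (3 and 3) and Suz12 (2 and 2), with 11 inputs. The titles of the FLAG samples name neither THF nor 4-OHT. For FLAG the labels give the *Brg1*f/f; *Actin-CreER* genotype, whereas the study's text gives ES cells with FLAG fused to endogenous Brg1, in duplicate, so what FLAG replicate 3 is cannot be told from the sources used here. None of the lists measures Brg1 in 4-OHT, so the deletion could not be checked in them, though the study's text reports loss of Brg1 protein and RNA.

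Each of the 17 lists gives the positions of regions enriched over input in 1 replicate, with no read count or score. Depth is therefore unknown, and the length of a list stands in for it. FLAG replicates 1 and 2 listed 8021 and 8257 regions and FLAG replicate 3 only 192, so a FLAG region was called bound when at least 2 of the 3 replicates listed it. The H3K27ac lists held 32161 to 41062 regions, the H3K27me3 lists 6787 to 16959 and the Suz12 lists 2913 to 4016. H3K27me3 replicate 1 of both conditions was listed as shorter pieces, with no region wider than 9300 bp against 33350 bp or more in the other replicates. Listed at the TSS in control cultures were H3K27ac at 7 of 8 mesoderm and primitive streak markers (all but *Kdr*) and at none of the 4 neural markers found in the annotation. H3K27ac was also listed in both controls at 4 of 5 pluripotency markers and at 2 of 5 definitive endoderm markers. H3K27me3 was listed in all 3 controls at 5 of 8 mesoderm, 5 of 5 endoderm, 4 of 4 neural and 2 of 5 pluripotency markers. Its presence alone thus did not set mesoderm markers apart, but its length was shorter there than at endoderm and neural markers. Summed in control replicates 1 to 3, it was 3625, 7725 and 10100 bp over the 8 mesoderm markers. The sums were 20197, 40279 and 39499 bp over the 5 endoderm and 19328, 34659 and 31628 bp over the 4 neural markers. Over the 5 pluripotency markers they were 3926, 8726 and 5576 bp. The cultures contain more than 1 cell type, so fewer cells with a mark and less of the mark per cell cannot be told apart.

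In control cultures, 9 of the 10 genes had H3K27ac within 5 kb of the TSS in both replicates, against 47.7% of all protein-coding genes. *Gdf3* was the exception, with 50 bp in 1 control replicate and 0 bp in the other. *Gsc* and *Lhx1* carried H3K27ac, H3K27me3 and Suz12 in every control list of each mark, a combination found at 187 of 22367 genes (0.836%). The other 8 genes had no H3K27me3 shared by all 3 control replicates and no Suz12 in control. The pathway thus fell into a larger set and a pair: the ligand *Nodal*, *Tdgf1*, the antagonists, *Foxh1* and *Mixl1* were listed with the active mark, and *Gsc* and *Lhx1* with the active and the repressive one.

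**Figure D1:**
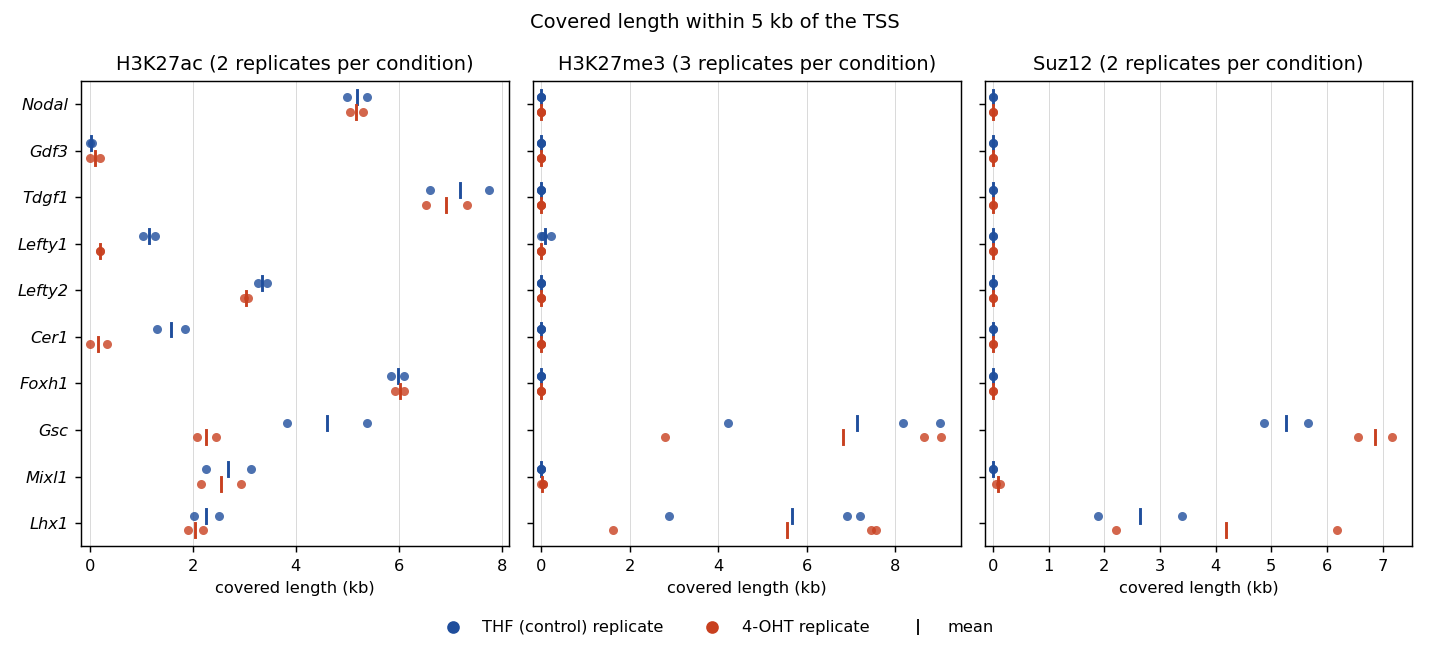
Covered length in kb within 5 kb of the TSS of each gene for H3K27ac, H3K27me3 and Suz12, with a point per replicate, a bar at the mean, THF in blue and 4-OHT in red. H3K27ac at *Lefty1*, *Cer1* and *Gsc* lay apart between the conditions, and H3K27me3 and Suz12 were long only at *Gsc* and *Lhx1* among the 10 genes.

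FLAG-bound regions lay within 50 kb of the TSS of 8 of the 10 genes, against 9.32% of all protein-coding genes, and within 5 kb of 5 genes (*Tdgf1*, *Lefty2*, *Cer1*, *Foxh1* and *Lhx1*), against 2.11%. *Gdf3* and *Mixl1* had none. There were 15 distinct bound regions, from 200 to 1500 bp wide. Because *Lefty1* and *Lefty2* lie 41.9 kb apart on chromosome 1, the only bound regions in the *Lefty1* window are a pair that lies next to *Lefty2*. The counts rest on FLAG replicates 1 and 2: with either left out, 1 gene (*Tdgf1*) remained, which was also the only gene with a region in all 3 replicates.

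Of the 15 bound regions, 14 lay in H3K27ac listed in both control replicates. The exception was chr11:84342576-84343800, centred 4.27 kb upstream of *Lhx1* in an intron of the neighbour *1500016L03Rik*, which lay in H3K27me3 instead. None fell in a gene body of the 10 genes. At *Nodal* a pair of bound regions lay 12.2 and 11.5 kb upstream (chr10:60868326-60868725 and chr10:60868951-60869425). At *Lefty2* 4 bound regions lay 9.61, 8.94, 3.73 and 2.5 kb upstream. At *Tdgf1* 3 lay between 1.01 and 2.8 kb upstream, and the middle one (chr9:110850126-110851000) covered 775, 800 and 275 bp in FLAG replicates 1 to 3. The widest bound region, 1500 bp, lay just upstream of *Cer1* (chr4:82531301-82532800). At *Gsc* the bound regions lay on both sides of the gene, 6.47 kb downstream of the TSS and 19.3 kb upstream. The upstream one rests on 25 bp in FLAG replicate 1 and 225 bp in replicate 2. The region 1.17 kb upstream of *Lhx1* likewise rests on 25 and 625 bp.

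To show what these elements contain, 300 bases (mm9, plus strand) centred on a region are printed for 7 of them. They are 4 FLAG-bound regions, chosen because each lies at a gene whose H3K27ac is described below, and 3 H3K27ac control regions with matches to the Foxh1 motif or to the T-box and Smad motifs. Capitals mark matches, on either strand, to 4 short motifs. The Foxh1 motif was AATNCACA, where N is any base. The Smad motif was CAGACA, the T-box motif, which factors such as Brachyury bind, was AGGTGTG, and that for GATA factors was AGATAAG. Matches to different motifs could overlap.
*Nodal* -12.2 kb, FLAG-bound, chr10:60868376-60868675: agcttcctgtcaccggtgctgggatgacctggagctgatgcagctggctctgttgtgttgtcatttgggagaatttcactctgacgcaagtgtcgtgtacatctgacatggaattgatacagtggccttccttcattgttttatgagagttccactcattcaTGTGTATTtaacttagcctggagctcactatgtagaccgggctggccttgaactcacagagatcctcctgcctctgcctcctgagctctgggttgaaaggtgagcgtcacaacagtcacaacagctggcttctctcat
*Lefty2* -2.5 kb, FLAG-bound, chr1:182820588-182820887: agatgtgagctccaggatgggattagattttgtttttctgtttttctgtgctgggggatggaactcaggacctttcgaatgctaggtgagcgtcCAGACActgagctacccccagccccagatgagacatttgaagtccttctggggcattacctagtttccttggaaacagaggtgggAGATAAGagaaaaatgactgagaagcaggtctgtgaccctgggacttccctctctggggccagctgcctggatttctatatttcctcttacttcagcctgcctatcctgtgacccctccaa
*Tdgf1* -1.9 kb, FLAG-bound, chr9:110850413-110850712: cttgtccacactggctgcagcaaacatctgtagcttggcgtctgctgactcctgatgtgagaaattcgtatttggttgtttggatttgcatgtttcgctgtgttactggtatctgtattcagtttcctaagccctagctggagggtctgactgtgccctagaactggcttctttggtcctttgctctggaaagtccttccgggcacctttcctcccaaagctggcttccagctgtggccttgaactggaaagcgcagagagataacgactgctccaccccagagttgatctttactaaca
*Cer1* -0.999 kb, FLAG-bound, chr4:82531901-82532200: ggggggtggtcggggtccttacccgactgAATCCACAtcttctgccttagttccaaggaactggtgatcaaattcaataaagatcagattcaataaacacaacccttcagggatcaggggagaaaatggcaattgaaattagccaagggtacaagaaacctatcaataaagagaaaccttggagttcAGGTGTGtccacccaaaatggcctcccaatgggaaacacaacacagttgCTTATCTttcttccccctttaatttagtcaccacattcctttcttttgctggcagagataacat
*Nodal* 1.37 kb, H3K27ac, chr10:60881938-60882237: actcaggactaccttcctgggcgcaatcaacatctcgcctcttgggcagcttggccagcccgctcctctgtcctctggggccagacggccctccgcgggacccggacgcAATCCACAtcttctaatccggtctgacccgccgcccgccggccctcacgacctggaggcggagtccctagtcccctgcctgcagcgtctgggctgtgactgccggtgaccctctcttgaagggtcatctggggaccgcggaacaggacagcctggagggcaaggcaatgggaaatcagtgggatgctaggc
*Lefty1* -10.2 kb, H3K27ac, chr1:182854851-182855150: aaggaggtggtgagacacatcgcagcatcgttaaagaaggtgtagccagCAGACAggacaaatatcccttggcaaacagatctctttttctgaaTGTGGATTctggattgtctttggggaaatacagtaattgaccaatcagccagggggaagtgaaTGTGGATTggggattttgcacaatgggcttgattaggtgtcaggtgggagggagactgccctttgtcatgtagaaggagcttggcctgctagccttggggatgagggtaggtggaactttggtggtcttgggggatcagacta
*Mixl1* -10.5 kb, H3K27ac, chr1:182637488-182637787: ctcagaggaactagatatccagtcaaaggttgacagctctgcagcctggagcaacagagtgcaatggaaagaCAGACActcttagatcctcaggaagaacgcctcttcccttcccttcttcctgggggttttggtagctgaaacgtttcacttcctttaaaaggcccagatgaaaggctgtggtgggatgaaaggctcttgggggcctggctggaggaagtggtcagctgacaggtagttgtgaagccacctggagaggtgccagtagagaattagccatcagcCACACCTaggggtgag

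A Foxh1 motif lay in 2 of the 15 FLAG-bound windows near the pathway genes, those at *Nodal* -12.2 kb and at *Cer1*, and in 6.99% of the 2390 windows on all FLAG-bound regions. Smad motifs were in 4 of 15 windows against 24.8%, T-box motifs in 3 against 7.07% and GATA motifs in 2 against 5.77%. Among windows on the 69 H3K27ac control regions within 50 kb of the genes, 8 held a Foxh1 motif (11.6%, against 4.62% of 27332 genome-wide) and 16 a Smad motif (23.2%, against 23.4%). The Foxh1 matches near the pathway genes included the window in the *Nodal* intron, which held 1, and the window 10.2 kb upstream of *Lefty1*, which held 2. The window at *Tdgf1* that FLAG bound in all 3 replicates held none of the 4 motifs. A match describes these letters only.

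The question addressed by H3K27ac was whether acetylation around these genes differed after *Brg1* deletion. Within 5 kb of the TSS, covered length was lower in both 4-OHT replicates than in either control replicate at 4 genes, namely the antagonists *Lefty1*, *Lefty2* and *Cer1* and the target *Gsc*. It was higher in none. Across the 12031 genes with H3K27ac in this window, 12.6% were lower and 39.8% higher by the same rule. The median log2 ratio of 4-OHT to THF (25 bp added to each mean) was -0.11 over the 10 genes and 0.15 over all genes tested. With 2 replicates per condition the smallest two-sided p of an exact permutation test is 0.333, reached by every gene whose conditions do not overlap, and the smallest adjusted p over all genes (Benjamini-Hochberg) was 0.637, so no gene could pass a test. The count of lower genes rose when THF replicate 1 or 4-OHT replicate 2 was left out. Such a setting compares 1 list with 2, so conditions overlap less readily. The share over all genes is not given for it, so the rise is not read as a result about these genes.

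Cell type markers were read in the same lists, beside the 12.6% of all genes with H3K27ac that were lower and the 39.8% that were higher. Within 5 kb, H3K27ac was lower in both 4-OHT replicates at 4 of 8 mesoderm and primitive streak markers (*T*, *Mesp1*, *Mesp2* and *Evx1*) and higher at none, and *Kdr* was at 0 bp in all 4 lists. Their summed length was 28016 and 38190 bp in THF against 20993 and 29715 bp in 4-OHT, which overlapped. Of 5 pluripotency markers, *Sox2* and *Klf4* were higher (40%, about the share over all genes) and *Nanog* lower (20%). Their sum was 14844 and 12969 bp in THF against 16571 and 16421 bp in 4-OHT, without overlap. Of 5 definitive endoderm markers, *Hhex* was higher and *Sox17*, *Foxa2* and *Foxa1* were at 0 bp in every list, with sums of 2083 and 3483 bp in THF against 2333 and 3783 bp in 4-OHT. All 4 neural markers were at 0 bp in every list. The part of a different mix of cells in the values at the pathway genes was not tested.

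At the ligand *Nodal*, promoter acetylation overlapped between the conditions. Covered length within 5 kb was 5000 and 5375 bp in THF against 5300 and 5050 bp in 4-OHT. *Nodal* has a known Foxh1-responsive enhancer in its first intron, and the region over the TSS and that intron covered 2950 and 3450 bp in control against 3525 and 3250 bp in 4-OHT. FLAG was listed there in replicate 2 only, for 350 bp. *Gdf3*, a ligand that works with Nodal, had 50 and 0 bp in THF against 200 and 0 bp in 4-OHT, all inside its intron. Over the gene body *Nodal* covered 2581 and 3106 bp in THF against 3256 and 3106 bp in 4-OHT, so the conditions overlapped in both windows.

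*Tdgf1*, whose product presents Nodal to its receptors, had the longest H3K27ac within 5 kb of the 10 genes, with 6600 and 7750 bp in THF against 6525 and 7312 bp in 4-OHT. Most of it was 1 promoter region of 6875 bp (chr9:110846451-110853325) that holds 3 FLAG-bound regions. That region covered 6500 and 6850 bp in THF against 6525 and 6800 bp in 4-OHT, and the conditions overlapped.

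At the 3 antagonists the conditions did not overlap. At *Cer1*, which encodes a secreted inhibitor of Nodal, BMP and Wnt, H3K27ac covered 1300 and 1850 bp in THF against 0 and 325 bp in 4-OHT (chr4:82531051-82532900). The mean was 1575 ± 389 bp in THF against 162 ± 230 bp in 4-OHT (SD, n = 2), a ratio of 0.103, with an exact permutation p of 0.333. Thus 4-OHT replicate 1 listed nothing at a promoter that holds a FLAG-bound region. At *Lefty1* the region centred 1.31 kb upstream of the TSS (chr1:182863201-182864475) covered 1275 and 1025 bp in THF against 200 bp in each 4-OHT replicate, a ratio of 0.174. *Lefty2* differed by less, with 3262 and 3437 bp within 5 kb in control and 2987 and 3062 bp in 4-OHT, a ratio of 0.903. Its narrow region 1.43 kb upstream was listed for 175 and 225 bp in THF against not at all in 4-OHT. No H3K27ac was listed in the gene body of *Lefty1* or *Lefty2* in any of the 4 lists. The 2 genes are close paralogs, and 16.8% of the 32-base stretches in the *Lefty1* gene body and 12.8% in the *Lefty2* gene body occur elsewhere in mm9. Among the other 8 gene bodies the share ran from 0 (*Foxh1* and *Gsc*) to 10.2% at *Nodal* and 14.3% at *Tdgf1*, so it was not particular to the paralogs. In the upstream *Lefty1* region that share was 0.

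*Foxh1*, which encodes the DNA-binding partner of the Smads, had 5850 and 6100 bp within 5 kb in control and 5925 and 6100 bp in 4-OHT. Its whole gene body, 1665 bp, was covered in all 4 lists. Of the targets, *Gsc* covered 3825 and 5375 bp in THF against 2075 and 2450 bp in 4-OHT, a ratio of 0.492. The region at the *Gsc* TSS itself was nearly as long in 4-OHT (2075 and 2050 bp) as in control (2100 and 2175 bp). The difference lay in the region running from the end of the gene downstream (chr12:105706551-105709750), with 1725 and 3200 bp in THF against 0 and 400 bp in 4-OHT. *Mixl1* covered 2250 and 3125 bp in THF against 2150 and 2925 bp in 4-OHT, and *Lhx1* 2025 and 2500 bp against 1900 and 2200 bp. At both of these targets the conditions overlapped, as they did at *Nodal*, *Tdgf1*, *Gdf3* and *Foxh1*. Over gene bodies, 8 of the 10 genes had H3K27ac and 1, *Gsc*, was lower (862 and 1319 bp against 812 bp in each 4-OHT replicate), where 18.3% of 12542 genes were lower and 33.3% higher.

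Within 50 kb of the TSS, H3K27ac covered length was lower in both 4-OHT replicates at 7 of the 10 genes (*Nodal*, *Lefty1*, *Lefty2*, *Cer1*, *Gsc*, *Mixl1* and *Lhx1*) and higher at *Gdf3* and *Foxh1*. Of 17242 genes with H3K27ac in this window, 20% were lower and 39.7% higher. The median log2 ratio was -0.42 over the 10 genes against 0.13 over all genes tested. *Lefty1* and *Lefty2* share most of their windows, so the 7 genes are 6 separate loci. With regions less than 1 kb apart joined, the count was 5, since the conditions then overlapped at *Nodal* and *Mixl1*. The exact permutation p was 0.333 for each gene without overlap, the smallest possible, and the smallest adjusted p over all genes was 0.559.

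**Figure D2:**
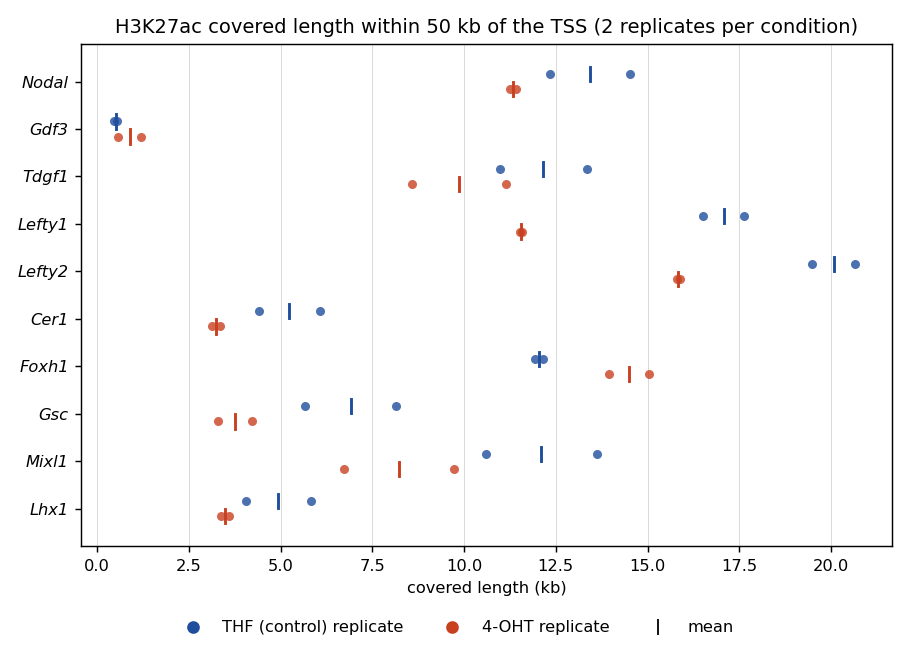
H3K27ac covered length in kb within 50 kb of the TSS of each gene, with a point per replicate, a bar at the mean, THF in blue and 4-OHT in red. Both 4-OHT points lie to the left of both THF points at 7 genes and to the right at *Gdf3* and *Foxh1*.

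*Nodal* covered 12350 and 14525 bp within 50 kb in control and 11425 and 11250 bp in 4-OHT. *Lefty1* covered 16523 and 17623 bp in THF against 11575 and 11523 bp in 4-OHT. *Lefty2* covered 19489 and 20664 bp in THF against 15789 and 15889 bp in 4-OHT. At these 3 genes the 4-OHT replicates lay close together, below both controls. *Cer1* covered 4400 and 6075 bp in THF against 3350 and 3125 bp in 4-OHT. Of the targets, *Gsc* covered 5675 and 8150 bp in control against 3300 and 4225 bp in 4-OHT. *Mixl1* covered 10586 and 13611 bp in THF against 6736 and 9736 bp in 4-OHT. The ratio of means at these genes ran from 0.544 at *Gsc* to 0.844 at *Nodal*, with *Lhx1* at 0.706 (4050 and 5825 bp in control, 3375 and 3600 bp in 4-OHT). *Tdgf1* had 10975 and 13350 bp in THF against 8575 and 11150 bp in 4-OHT, so its higher 4-OHT replicate exceeded its lower control.

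The longer H3K27ac around *Gdf3* and *Foxh1* in 4-OHT lay mostly at neighbouring genes. *Gdf3* had 550 and 450 bp within 50 kb in control and 1200 and 575 bp in 4-OHT, and the region at the *Apobec1* promoter made up 500 and 175 bp of it in THF and 1000 and 575 bp in 4-OHT. *Foxh1* had 12150 and 11925 bp in THF against 15050 and 13950 bp in 4-OHT, and 9 other protein-coding genes start in its window. The region across *Foxh1* was 4775 and 4700 bp long in control and 4700 and 4625 bp in 4-OHT. The region at *Lrrc14* and *Recql4*, 40.7 kb upstream, covered 975 and 825 bp in THF against 1550 bp in each 4-OHT replicate.

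H3K27ac regions at start sites and away from them were then counted separately. Regions were merged over the 4 H3K27ac lists and used where at least 2 lists held them, in whichever condition, and each was counted once. Within 50 kb of the 10 genes, 42 lay within 2.5 kb of an annotated TSS of any gene (promoter regions) and 36 lay beyond (distal regions). Of the distal regions, 21 covered less in both 4-OHT replicates than in either control (58.3%) and 4 covered more (11.1%), against 44.8% and 23.3% of 18136 distal regions genome-wide. Of the promoter regions, 12 covered less (28.6%) and 10 more (23.8%), against 16.7% and 38.5% of 14925. The median ratio of 4-OHT to THF length, with 25 bp added to each mean, was 0.595 for distal and 0.999 for promoter regions near the pathway genes, and 0.812 and 1.1 genome-wide.

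A related count asked how many regions of the control cultures were still listed. Of regions listed in both controls, 24 of 30 distal ones (80%, exact 95% binomial confidence interval 61.4 to 92.3, counting error only) were listed in at least 1 4-OHT replicate, against 66.9% of 13914 genome-wide. For promoter regions the values were 37 of 39 (94.9%, interval 82.7 to 99.4) and 94% of 13418. Both intervals treat regions as independent, though many lie at the same locus and all were read in the same lists. They are therefore no test against the genome-wide shares. The distal share was 70% in 4-OHT replicate 1 and 80% in replicate 2. The 6 distal regions that neither replicate listed were 3 upstream of *Gsc* and 1 each at *Nodal*, *Tdgf1* and *Mixl1*. Because this count starts from the controls, it can record a region that is missing in 4-OHT but not one that is new.

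At *Nodal* a cluster of 3 H3K27ac regions upstream was listed in both controls. The farthest from the gene, chr10:60868076-60870050, which holds both FLAG-bound regions, covered 1950 and 1850 bp in THF against 1700 and 1525 bp in 4-OHT. The next region, 10 kb upstream, covered 875 and 650 bp in THF against 0 and 200 bp in 4-OHT. The one at 8.02 kb (chr10:60872001-60873400) covered 1100 and 1300 bp in THF against 300 and 200 bp in 4-OHT. A narrow region 4.46 kb upstream was listed for 125 bp in each control and in neither 4-OHT replicate. The 2 regions shortened most held no FLAG-bound region, and the bound one kept most of its length.

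**Figure D3:**
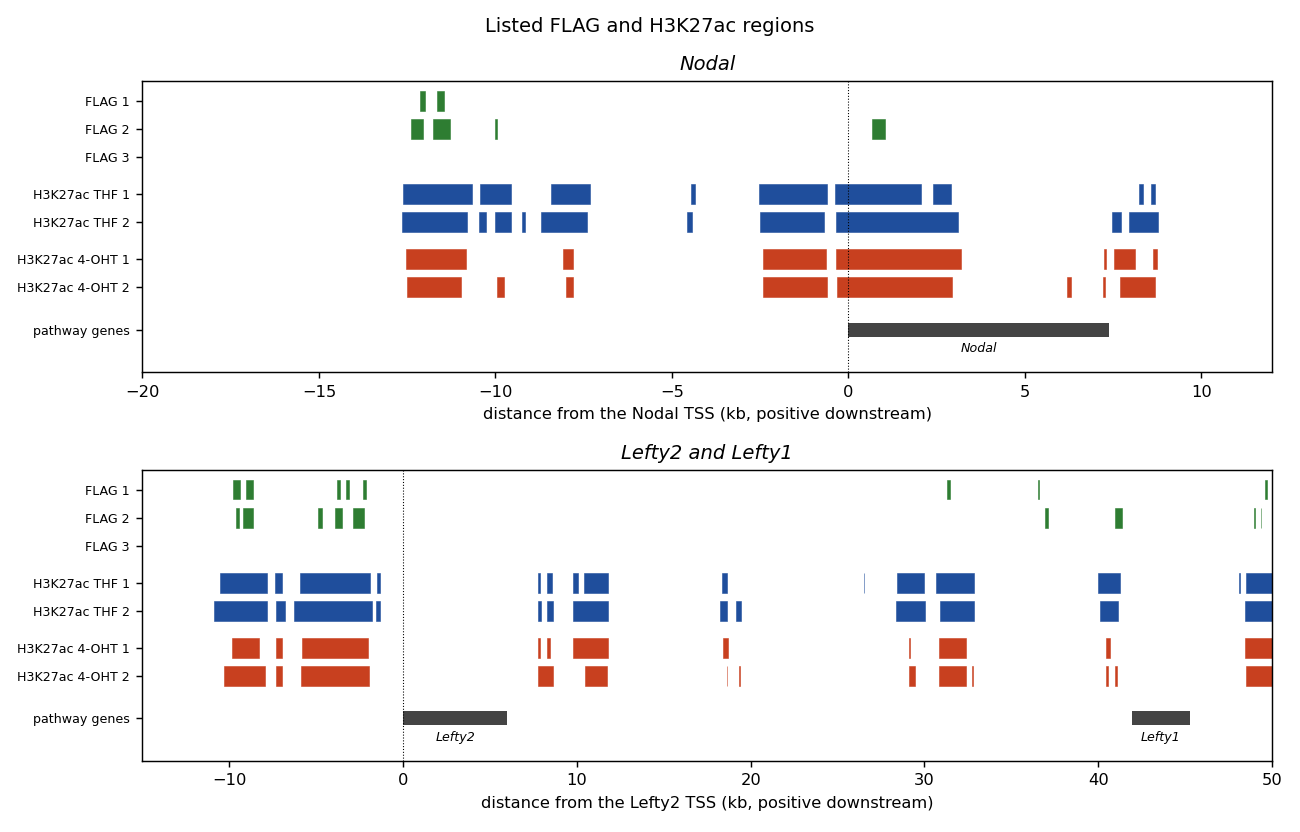
FLAG regions (green) and H3K27ac regions in THF (blue) and 4-OHT (red), 1 row per replicate, by distance in kb from the *Nodal* TSS and from the *Lefty2* TSS, with bodies of the pathway genes below. At *Nodal* the regions about 8 and 10 kb upstream are shorter or missing in 4-OHT and the region over the TSS is not. At *Lefty1*, 41.9 kb from the *Lefty2* TSS, the region just upstream of the gene shrinks to small pieces.

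Around *Lefty2* and *Lefty1* several H3K27ac regions were shorter in 4-OHT. The one 12.7 kb upstream of *Lefty1* (chr1:182851601-182853250) covered 1525 and 1650 bp in THF against 50 and 325 bp in 4-OHT. Its neighbour 10.2 kb upstream, the one with 2 Foxh1 motifs in its window, covered 2175 and 1950 bp in THF against 1550 and 1575 bp in 4-OHT. The FLAG-bound region upstream of *Lefty2* (chr1:182816951-182821450) covered 4050 and 4500 bp in THF against 3800 and 3925 bp in 4-OHT. All 3 were shorter in both 4-OHT replicates, the first by the most of these 3. The region 9.34 kb upstream of *Lefty2*, also FLAG-bound, covered 2700 and 3050 bp in THF against 1550 and 2325 bp in 4-OHT. The neighbour *Tmem63a* had 2 promoter regions listed in both controls, and both were shorter in 4-OHT. The first covered 2800 and 2700 bp in THF against 2300 and 2275 bp in 4-OHT, and the second (chr1:182874751-182876225) 1325 and 1475 bp against 750 and 525 bp.

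At *Mixl1* a row of 4 intergenic regions upstream covered less in 4-OHT, while the conditions overlapped at the promoter. From the gene outward, the region 6.4 kb upstream covered 2125 and 2625 bp in THF against 1225 and 1950 bp in 4-OHT. The region at 10.5 kb, with 1 T-box and 1 Smad motif in its window, covered 2125 and 2275 bp in THF against 300 and 1175 bp in 4-OHT. The region at 12.4 kb covered 275 and 900 bp in THF against none in 4-OHT. The farthest, 17.4 kb upstream, covered 450 and 1250 bp in THF against 0 and 25 bp in 4-OHT. The promoter region covered 2250 and 2625 bp in THF against 2150 and 2425 bp in 4-OHT. FLAG was listed in these regions by 1 replicate at a time (replicate 1 for 500 bp at 6.4 kb, replicate 2 for 275 bp at 10.5 kb), so none was called bound.

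**Figure D4:**
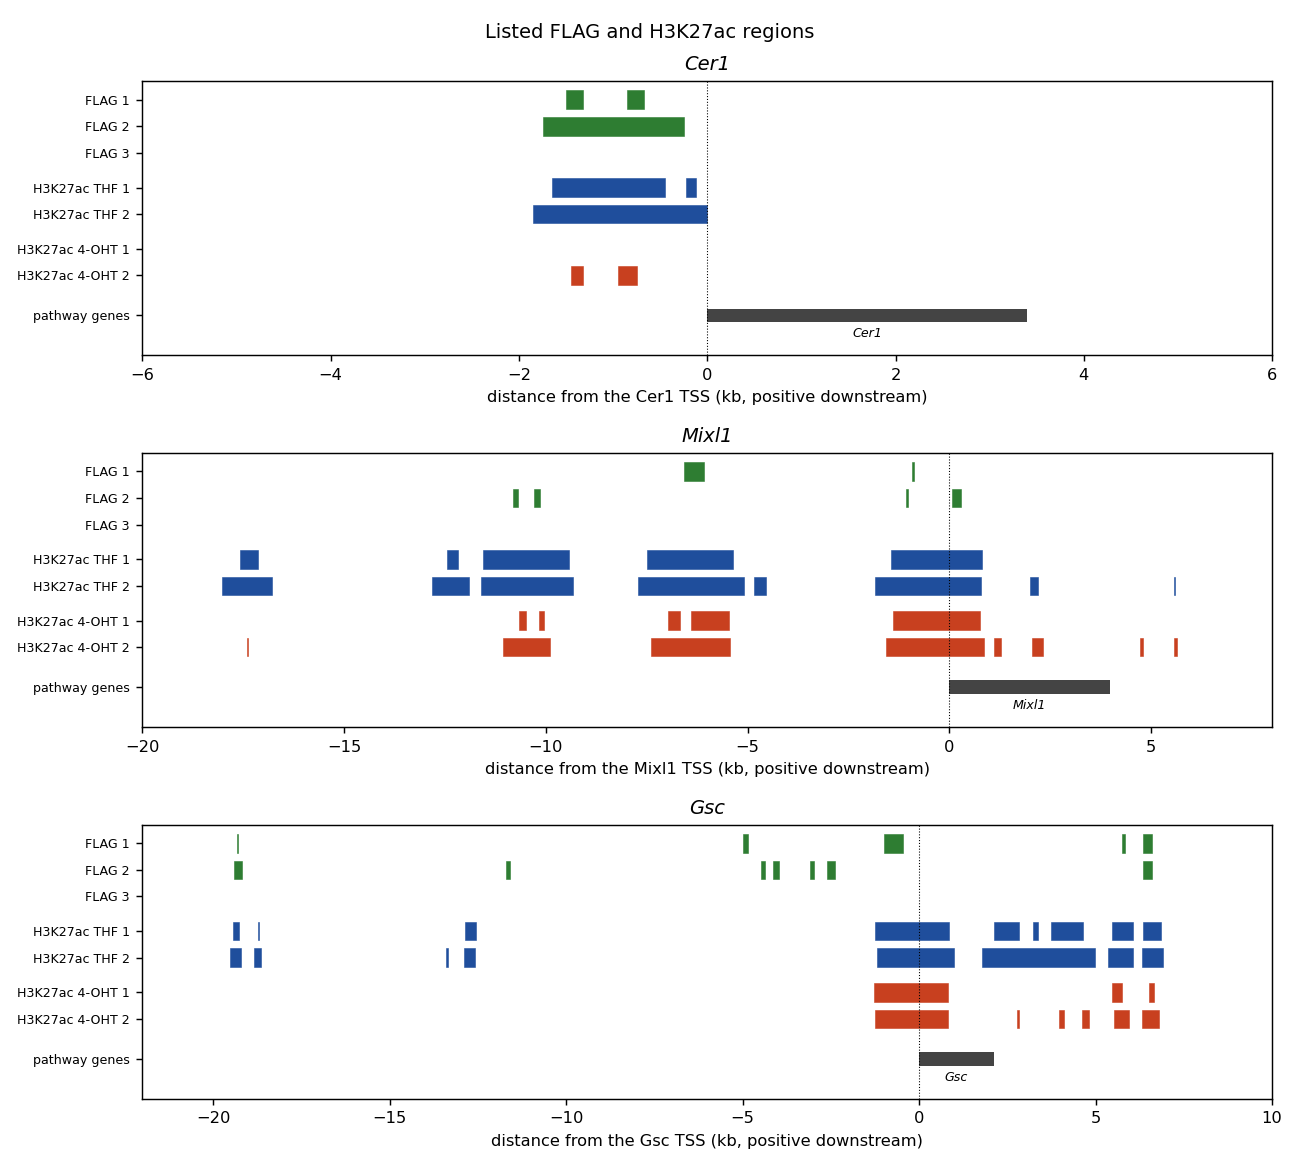
FLAG regions (green) and H3K27ac regions in THF (blue) and 4-OHT (red), 1 row per replicate, by distance in kb from the TSS of *Cer1*, *Mixl1* and *Gsc*, with bodies of the pathway genes below. The regions over the *Mixl1* and *Gsc* TSS are alike in the conditions, while upstream regions at *Mixl1*, downstream regions at *Gsc* and the region before *Cer1* shorten in 4-OHT.

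*Gsc*, a homeobox gene of the organizer, had 5 distal regions listed in both controls that covered less in both 4-OHT replicates. Its 3 upstream regions at 12.7, 18.7 and 19.4 kb were listed in both controls and in neither 4-OHT replicate. The first covered 300 bp in each control, and the last, which overlaps a FLAG-bound region, covered 175 and 300 bp. The middle one covered 25 and 200 bp, so in THF replicate 1 it rests on 25 bp. Downstream, the FLAG-bound region 6.61 kb from the TSS covered 525 and 600 bp in THF against 150 and 500 bp in 4-OHT. A region 31.2 kb downstream went the other way, with 225 and 325 bp in THF against 650 and 600 bp in 4-OHT. At *Lhx1* the single distal control region, 14.6 kb upstream, covered 925 and 1375 bp in THF against 350 and 200 bp in 4-OHT. At *Tdgf1* the region 7.55 kb downstream of the TSS, just past the gene, covered 1175 and 1775 bp in THF against 475 and 975 bp in 4-OHT.

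Shorter H3K27ac was not limited to FLAG-bound regions. Of the 36 distal regions near the pathway genes, 4 held a bound region, and all 4 covered less in 4-OHT with a median ratio of 0.636. Of the 32 without one, 17 covered less and 4 more, with a median ratio of 0.584. Genome-wide, 833 of 1076 distal regions with a bound region covered less and 26 more, with a median ratio of 0.395. Of 17060 without one, 7291 covered less and 4203 more, with a median ratio of 0.87. At promoters the medians near the pathway genes were 0.907 (5 regions with) and 1.01 (37 without), against 0.919 and 1.11 genome-wide. Regions with a FLAG-bound region were also wider, with medians of 1288 bp against 712 bp among the distal ones near the pathway genes, and the part of width in these values was not tested.

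H3K27me3 and Suz12 addressed whether repression of these genes differed. Within 5 kb of the TSS, H3K27me3 was lower or higher without overlap at 0 of the 10 genes, where 12% of 4204 genes were lower. In total 4 genes had any H3K27me3 there, *Gsc* and *Lhx1* at length and *Lefty1* and *Mixl1* in traces of at most 225 bp. With 3 replicates per condition the smallest exact permutation p is 0.1, so no gene could pass an unadjusted test at 0.05 either. Leaving out THF replicate 3 gave 1 lower gene, and leaving out 4-OHT replicate 1 or 4-OHT replicate 2 gave 1 higher gene. The share over all genes is not given for these settings, so their counts are not read as results about these genes. *Nodal*, *Tdgf1* and *Cer1* had no H3K27me3 and no Suz12 within 50 kb in any list, so the shorter H3K27ac at *Cer1* was not accompanied by a listed repressive mark.

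At *Gsc*, H3K27me3 within 5 kb covered 4212, 8187 and 9012 bp in control replicates 1 to 3 and 2787, 8662 and 9037 bp in 4-OHT. At *Lhx1* it covered 2898, 6923 and 7201 bp in THF against 1625, 7573 and 7451 bp in 4-OHT. In both genes replicate 1 of each condition was low, as it was in its list as a whole. Among replicates 2 and 3 the conditions overlapped at *Gsc*, whereas at *Lhx1* both 4-OHT values lay above both THF values. Merged over the lists, H3K27me3 at *Gsc* left a short gap at the TSS, with 1 domain over the gene and its downstream flank (chr12:105707251-105711450) and 1 upstream over *Gm10000* (chr12:105711676-105719375). The upstream domain covered 5125, 7600 and 7175 bp in THF against 3575, 6850 and 6250 bp in 4-OHT.

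Within 50 kb, H3K27me3 did not separate the conditions at any of the 7 genes with a region, where 15.5% of 8533 genes were lower. Same-numbered H3K27me3 replicates deviated together, however, as did replicates 2 and 3 across numbers, and within every pair the 4-OHT value was the lower one at *Gsc*, *Lhx1* and *Foxh1*. *Gsc* covered 6550, 11025 and 11350 bp in control replicates 1 to 3 and 3575, 10675 and 10425 bp in 4-OHT. *Lhx1* covered 5125, 13425 and 13675 bp in THF against 4675, 11650 and 13650 bp in 4-OHT. At *Foxh1* the regions (900, 1525 and 1375 bp against 175, 950 and 550 bp) lay over *Lrrc14* and *Lrrc24*, nearly 50 kb from its TSS. Genome-wide 48.8% of genes with H3K27me3 were lower in every pair, and the smallest exact p with 3 pairs is 0.25. As a share of each list's total length, *Foxh1* was lower in every pair, *Lhx1* turned higher in every pair and *Gsc* was neither. Without pairing, the count of lower genes was 2 when THF replicate 1 or THF replicate 3 was left out, and 1 gene was lower and 1 higher when 4-OHT replicate 2 was. These counts too have no share over all genes beside them.

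Suz12 within 5 kb of the TSS was higher in both 4-OHT replicates at 2 genes, *Gsc* and *Mixl1*, where 32.1% of 2290 genes were higher and 5.76% lower. At *Gsc* it covered 5650 and 4875 bp in THF against 6550 and 7175 bp in 4-OHT, a ratio of 1.3 with an exact permutation p of 0.333. At *Mixl1* it was listed at 0 bp in both controls and at 50 and 125 bp in 4-OHT, over the gene itself, so the second gene rests on a region of 125 bp. At *Lhx1* it covered 1878 and 3403 bp in THF against 2203 and 6178 bp in 4-OHT, and the conditions overlapped. Within 50 kb the same 2 genes were higher, where 30.1% of 4532 genes were.

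**Figure D5:**
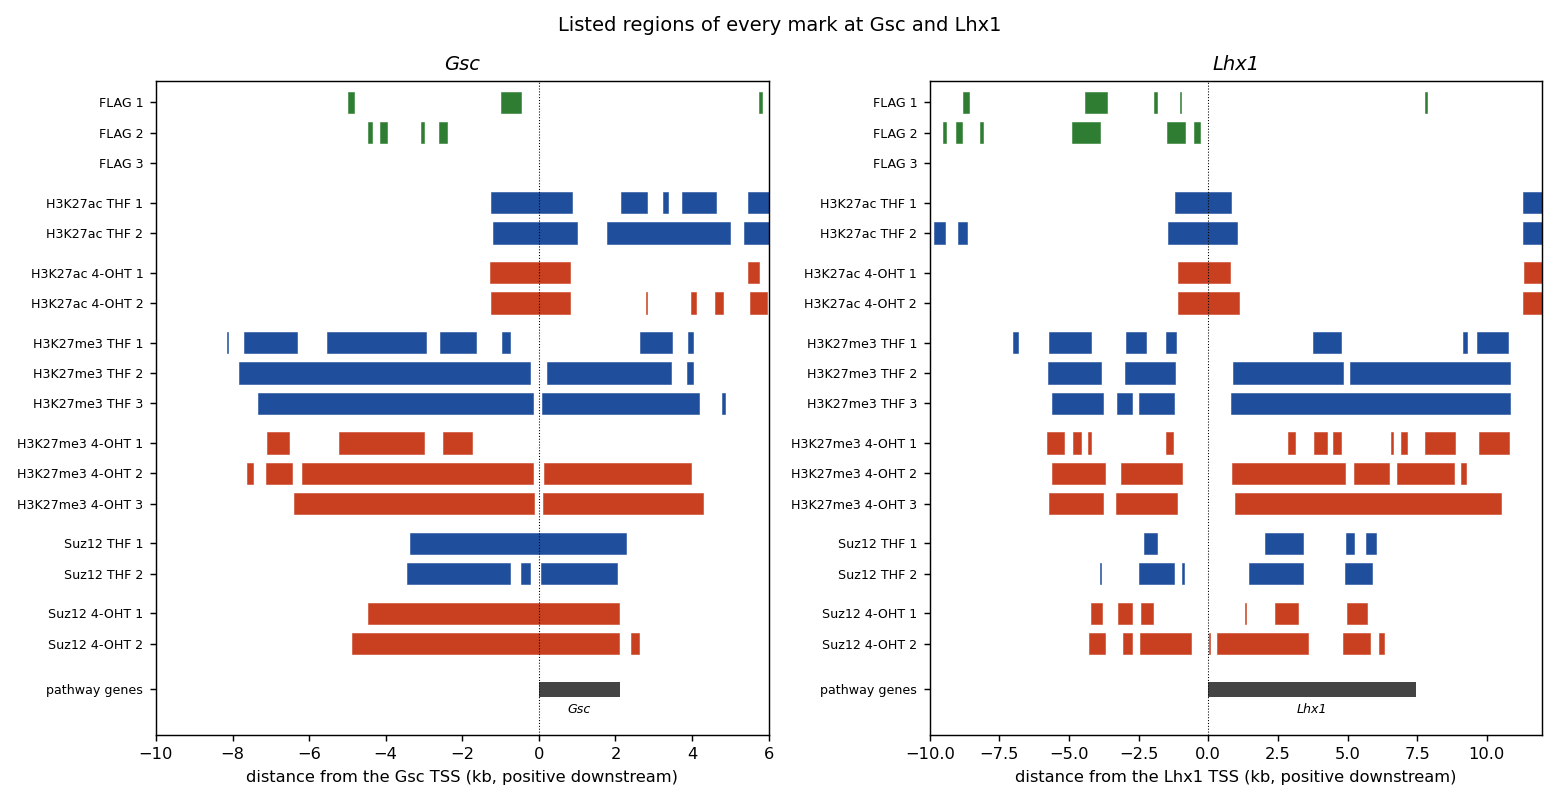
Regions of every list at *Gsc* and *Lhx1* by distance in kb from the TSS, 1 row per replicate, with FLAG in green, THF in blue, 4-OHT in red and bodies of the pathway genes below. H3K27ac sits over both TSSs and H3K27me3 on either side of them, and H3K27me3 replicate 1 is broken into pieces in both conditions.

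Upstream of *Lhx1* the farther of the 2 FLAG-bound regions lay in H3K27me3, and the nearer lay at the edge of H3K27me3. The nearer one, at 1.17 kb, overlapped the edge of the promoter H3K27ac region and H3K27me3 in all 6 lists (325, 300 and 250 bp in control, 200, 550 and 350 bp in 4-OHT). The farther one, at 4.27 kb, was covered by H3K27me3 for 675, 1025 and 1100 bp in THF against 375, 1175 and 1100 bp in 4-OHT. Suz12 covered 0 and 50 bp of it in control and 400 and 575 bp in 4-OHT. The H3K27me3 there overlapped between conditions while Suz12 was longer in both 4-OHT replicates.

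Of 35 further symbols fixed for the pathway, 34 were found in the annotation under that name (*Tmepai* was not, and *Pmepa1*, the current name of the same gene, was). H3K27ac within 5 kb was listed in both controls at 25, and at 27 in any of the 4 lists. Of these 27, 8 were lower in both 4-OHT replicates (29.6%) and 9 higher (33.3%), to be read against 12.6% and 39.8% of all genes with H3K27ac. The 5 lower genes with the largest differences were *Wnt3* (4625 and 7300 bp against 3950 and 3875 bp), *Otx2* (6082 and 5407 against 4682 and 4357 bp), *Skil* (4621 and 5251 against 3696 and 4425 bp), *T* (2188 and 2563 against 1588 and 1988 bp) and *Pmepa1* (3859 and 4275 against 3309 and 3725 bp). *Wnt3*, *Otx2* and *T* act in or near the primitive streak, and *Skil* and *Pmepa1* encode feedback inhibitors of Smad signalling. Of the receptors, *Acvr2a* was lower (1800 and 1750 against 1675 bp in each 4-OHT replicate) and *Acvr2b* and *Tgfbr1* were higher. *Smad3* and *Smad4* were lower and *Smad2* higher, each by at most 250 bp. Among the 9 higher genes was *Gdf1*, a partner ligand of Nodal, with 550 and 475 bp in THF against 1600 and 2025 bp in 4-OHT. Also higher were the targets *Fgf8* (5671 and 6721 against 6821 and 6921 bp) and *Hhex* (25 and 25 against 675 and 625 bp). So was the antagonist *Dand5* (3165 and 4015 against 4390 and 4040 bp), so targets and inhibitors went both ways.

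For H3K27me3 within 5 kb, 1 of the 17 genes with a region was lower without overlap (5.88%, against 12% of all genes with H3K27me3), the type I receptor gene *Tgfbr1* (400, 1150 and 800 bp in control, 0, 25 and 0 bp in 4-OHT), and 0 were higher. Of the 12 genes with Suz12, 1 was lower (8.33%, against 5.76% of all genes with Suz12) and 3 were higher (25%, against 32.1%). *Foxa2* was lower (6221 and 7246 bp against 3950 and 5650 bp) and *Pcsk6*, *T* and *Acvr1c* were higher, the last with 25 bp in each 4-OHT replicate. Of the 10 targets on this list, 9 had H3K27me3 in all 3 controls, against 11.8% of all protein-coding genes, and *Wnt3* had none. Its length differed widely in control replicates 1 to 3. It was 225, 25 and 325 bp at *Fgf8* and 150, 125 and 650 bp at *T*, but 5282, 10001 and 10001 bp at *Sox17*. Not all 9 were thus marked at length as *Gsc* and *Lhx1* were.

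The genes whose lists were most like those of *Nodal* within 5 kb, by Euclidean distance over the 17 lists of log2 covered length with 25 bp added, were *Jarid2* (distance 0.23), *Myc* (0.50) and *Rbpms2* (0.51). All 3 had between 4596 and 5775 bp of H3K27ac in each list, a FLAG region in replicate 2 only, and no other mark.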

How the data were processed

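The authors aligned ChIP-seq reads to mm9 (Bowtie is named in the submitters' processing notes) and called enriched regions in each replicate over input with a Poissonian model, at 1e-06 and at least 2-fold for FLAG and at 1e-12 for the other marks. The deposited lists hold chromosome, start and end alone, with edges at multiples of 25 bp. Inputs were not used here otherwise.

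Covered length was summed per list and window around each gene's 5′ end in the GENCODE annotation of mm9. A gene was tested where at least 1 list of a mark had a region in the window. It was called lower or higher when the conditions did not overlap, and the difference in mean was put to a two-sided exact permutation test, adjusted over all tested genes by the Benjamini-Hochberg method. Replicates of 1 condition are separate samples in the labels, which do not say whether cultures were separate. The study's text calls them biological, in duplicate for H3K27ac and Suz12 and in triplicate for H3K27me3. How much of the spread is technical was not tested. FLAG regions that overlapped between replicates by 1 bp or more were merged. For counts of single H3K27ac regions, the 4 lists were merged and regions in at least 2 were used, a rule set after the data were seen, since starting from control regions would favour loss. Same-numbered H3K27me3 samples deviated together (correlations over merged regions of 0.932, 0.875 and 0.796), so the numbers were taken to pair them, as judged from the lists alone. Replicates 2 and 3 of different number also deviated together (0.692 and 0.760), so the check mainly sets replicate 1 apart. With 2 pairs the check (0.418 for H3K27ac, 0.444 for Suz12) cannot show pairing.

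Genes were named by a rule: the 10 members, up to 5 per mark of the further pathway list by largest difference, neighbours with a region at their TSS, and the 3 genes most like *Nodal*. For H3K27ac the 5 were taken among the lower genes only, a narrowing of that rule. *Acvr2a*, *Acvr2b*, *Tgfbr1*, *Smad2*, *Smad3*, *Smad4*, *Gdf1*, *Fgf8*, *Hhex*, *Dand5* and the regions described were picked for H3K27ac after their values were seen. The members and lists were chosen with earlier results of these data known. Motifs were searched in 300-base windows of the mm9 sequence, and repeated 32-base stretches by exact match on both strands. In simulated lists with 2 replicates per condition, 100% of 200 halved genes and 14.4% of unchanged genes were called lower, among 4000. The halving was large against the simulated spread, so the first value checks the code and not the power for smaller or noisier differences. The software was Python 3.11.15 with NumPy 2.4.6 and SciPy 1.17.1, and figures were drawn in Matplotlib 3.10.9. A neighbouring gene and 1 sequence are not reported here.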

Additional observations from a re-analysis of the deposited data

How the results depend on the processing

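The counts of genes without overlap were recomputed with other windows, list transformations, replicate pairs and single replicates left out. No share over all genes is given beside these counts. They therefore describe how far the counts move and are not read as results about the genes. The replicate block asks only for the same direction within every same-numbered pair, a looser rule than no overlap. H3K27ac within 50 kb of the TSS was lower at 7 or 8 genes in every setting but 2. With regions within 1 kb joined the count was 5, and counting regions in place of length gave 1 lower and 0 higher. Within 100 kb 1 gene was higher. Counting regions also turned the direction at *Lefty1* within 5 kb (ratio 1.5), at *Mixl1* within 50 kb (1.17) and for Suz12 at *Gsc* in both windows (0.75), since a region that breaks into pieces counts more than once. The *Gdf3* ratio within 50 kb turned to 0.905 within 100 kb.

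Within 5 kb, H3K27ac was lower at 2 genes by number of regions (*Nodal*, which overlapped by length, and *Lefty2*) and at 7 with the replicate block. It was higher at 1 gene within 2.5 kb, within 10 kb or as a share of the list's length. Over gene bodies it was lower at 0 genes by share or number, at 2 with the block, and higher at 1 by share or with regions joined within 1 kb. H3K27me3 was lower at 1 gene within 5 kb by number, and within 50 kb at 3 with the replicate block and at 1 within 100 kb, with regions joined, or by share. By share with the block, which was chosen after seeing the data, 1 gene was lower and 1 higher. Suz12 was higher at 1 gene within 5 kb when the window was 2.5 kb, regions under 200 bp were left out, each list was limited to the same number of regions, or shares were used. Within 50 kb the last 3 settings also gave 1, and over gene bodies the first 2 of these gave 0. The block gave 3 genes higher in both TSS windows of Suz12. Apart from the block counts named in this paragraph, it changed no count by more than 1.5 times.

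With single replicates left out, H3K27ac lower genes ranged from 4 to 8 within 5 kb, from 1 to 4 over gene bodies and from 7 to 8 within 50 kb, and higher genes from 0 to 2, from 0 to 2 and at 2. H3K27me3 lower genes ranged from 0 to 1, 0 to 1 and 0 to 2, and higher genes from 0 to 1 within 5 and 50 kb. Suz12 higher genes ranged from 2 to 3 in both TSS windows and from 1 to 2 over gene bodies, where lower genes ranged from 0 to 1. FLAG-bound genes ranged from 1 to 8, with 1 gene when all 3 replicates were required and 5 within 5 kb. Kept regions ranged from 87.2 to 94.9% at promoters and from 63 to 80% beyond. Requiring at least 50% of the region to be covered gave 84.6 and 60%, and listing in both 4-OHT replicates 87.2 and 70%. The causes were not tested. Unknown depth, region lists without scores and 2 or 3 replicates limit every comparison.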
